A study of Mus musculus with 6 samples.

Results

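Interferon-stimulated genes are the genes that cells switch on when an interferon binds its receptor, and 39 of them were followed here in inguinal fat, a white adipose depot (iWAT), of Zip13-KO and WT mice. The members are a list of mouse genes known to be induced by interferon, each measured by the array probes designed on a RefSeq transcript of that gene. Of the 39 genes, 37 were measured, among 15306 genes tested in all. The remaining pair, Mx1 and Mx2, had no probe that the RefSeq table in use could name, and both are not analysed here.

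All mice had been backcrossed onto C57BL/6J over several generations. They were kept on powdered feed, because the knockout animals lack some teeth. They were 10 weeks old by the study's account. The labels name both a standard and a high-fat feed for the colony and do not say which one these animals received. Zip13-KO mice lack ZIP13, a zinc transporter encoded by Slc39a13, in every tissue: a Neo cassette stands between exons 5 and 9 of the gene in place of the exons that lie there. WT littermates served as controls. RNA of whole iWAT, with the adipocytes and all other cells of the depot, was hybridized to 6 Agilent 1-colour arrays, 3 per genotype. All lay on 1 slide, with the WT arrays and Zip13-KO replicate 1 in slide column 1 and Zip13-KO replicates 2 and 3 in slide column 2.

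Type I interferons signal through a receptor pair and the kinases JAK1 and TYK2 to a complex that holds STAT2 and IRF9 and binds the interferon-stimulated response element (ISRE) in target promoters. Interferon-gamma signals through a receptor of its own to promoters with a gamma-activated site (GAS), and induces IRF1 along with many GTPases that attack intracellular pathogens. The products of these genes sense viral nucleic acid, degrade RNA, block translation and viral entry, or feed back on the pathway, and in adipose tissue both adipocytes and resident macrophages respond to interferon.

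The promoter table from RefSeq (assembly GRCm38.p6), which gives 250 bases before and 50 bases after a gene's start, held 29 of the 39 genes. It was searched on both strands for the ISRE core GAAANNGAAA, whose reverse complement is TTTCNNTTTC. At least 1 match was found in 17 of the 29 genes (58.6%), against 3.99% of all 27025 genes and 3.44% of all 32851 promoters in the table. For 6 genes whose array values are described below, the 100 bases just before the start are printed 5′ to 3′ on the strand of the gene, with each match in capitals. They were chosen to set 3 genes of the OAS and ISG15 groups beside 3 of the GTPases.

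Isg15: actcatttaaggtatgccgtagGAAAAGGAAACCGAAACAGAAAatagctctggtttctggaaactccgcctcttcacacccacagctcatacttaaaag
Oas1a: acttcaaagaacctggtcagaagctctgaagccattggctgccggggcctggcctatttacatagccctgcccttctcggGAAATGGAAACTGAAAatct
Oas3: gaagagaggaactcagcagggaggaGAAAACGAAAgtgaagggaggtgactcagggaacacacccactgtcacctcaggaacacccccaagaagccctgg
Irgm1: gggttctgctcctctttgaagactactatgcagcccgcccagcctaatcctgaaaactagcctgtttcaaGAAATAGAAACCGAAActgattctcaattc
Gbp2: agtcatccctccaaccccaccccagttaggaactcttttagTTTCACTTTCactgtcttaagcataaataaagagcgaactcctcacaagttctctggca
Igtp: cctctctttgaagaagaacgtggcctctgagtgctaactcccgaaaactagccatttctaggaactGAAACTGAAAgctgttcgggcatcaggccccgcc

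These windows lie at chr4:156200819-156200918 on the minus strand for Isg15, chr5:120907526-120907625 on the minus strand for Oas1a, and chr5:120777660-120777759 on the minus strand for Oas3. Those of the GTPases lie at chr11:48871421-48871520 on the minus strand for Irgm1, chr3:142620563-142620662 on the plus strand for Gbp2, and chr11:58199456-58199555 on the plus strand for Igtp. Isg15 held 3 overlapping matches, Oas1a and Irgm1 held 2 overlapping matches each, and Oas3, Gbp2 and Igtp held 1 match each.

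Most of the interferon-stimulated genes had lower levels in the knockout tissue. At an adjusted p under 0.05 (limma, Benjamini-Hochberg over all genes tested) and a change of more than 1.5-fold, 26 of the 37 genes were called lower, where 8.28% of all genes tested were called lower. Ifi27 was the 1 gene called higher, where 10.2% of all genes were, and 10 genes passed in neither direction. All 3 Zip13-KO arrays lay below all 3 WT arrays for 32 genes and above them for 1, against 25.9% and 29.2% of all genes tested. The median log2 fold change, Zip13-KO minus WT, was -0.86 over the 37 genes and -0.0005 over all genes. Without Zip13-KO replicate 1, or without replicate 2, 14 of the genes were called lower.

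**Figure D1:**
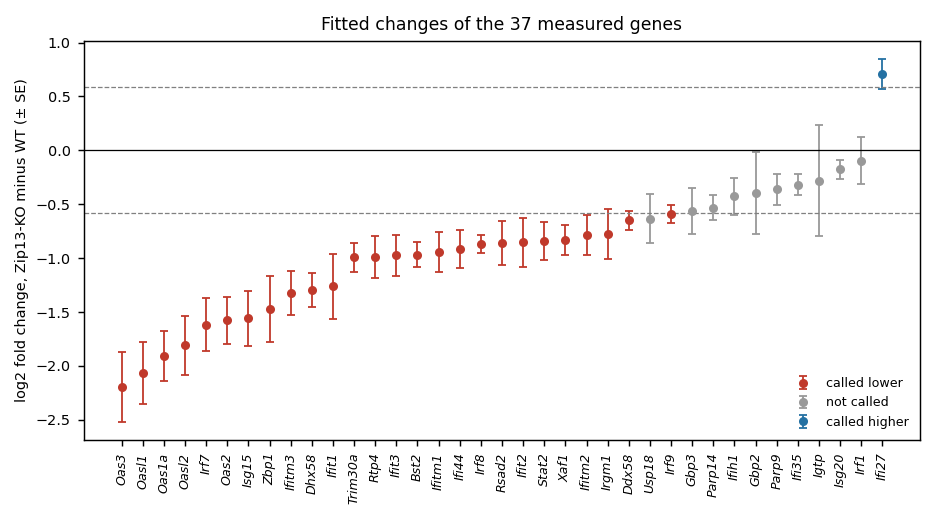
Log2 fold change, Zip13-KO minus WT, with its standard error from limma (vertical axis) for each of the 37 measured genes, ordered by size (n = 3 arrays per genotype). Dashed lines mark a change of 1.5-fold. The 26 genes called lower run from Irf9 at -0.59 to Oas3 at -2.20, and Ifi27 stands alone above 0 at 0.71.

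The share of spots well above background was 62.5% to 63.2% on WT arrays and 58.8% to 60.4% on Zip13-KO arrays, and the median processed signal was 34.7 to 35.6 intensity units in WT and 29.5 to 31.2 in Zip13-KO arrays. Both measures thus moved with genotype before the arrays were normalized, and their part in the results was not tested. Saturation affected 0 spots. All 37 genes were well above background on all 6 arrays. Slc39a13 itself was at a normalized log2 intensity of 11.29, 10.87 and 10.72 in WT and 6.76, 6.66 and 6.47 in Zip13-KO, a log2 fold change of -4.33 (SE 0.17, limma adjusted p = 0.00128). Where its probe lies relative to the deleted exons was not determined. Because the tissue was measured whole, fewer cells of a type and less RNA per cell cannot be told apart in any of these values.

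The group with the lowest median was that of the OAS proteins, enzymes and enzyme relatives that sense double-stranded RNA, which held the 4 genes with the lowest log2 fold changes of the list. Oas1a, Oas2 and Oas3 make the short adenylates that switch on the nuclease RNase L, and Oasl1 and Oasl2 are related proteins. All 5 genes were called lower, with a median log2 fold change of -1.91. Oas3 was at a log2 intensity of 8.52, 7.95 and 7.63 in WT and 5.499, 5.59 and 6.42 in Zip13-KO, which is 4.59-fold lower (log2 fold change -2.20, SE 0.32, limma adjusted p = 0.00766). Its 3 Zip13-KO arrays all lay below the lowest WT array, by at least 1.21 on the log2 scale, and Zip13-KO replicate 3 was the highest of the 3.

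Oas1a was at 13.58, 13.15 and 12.71 in WT and 11.11, 11.13 and 11.48 in Zip13-KO, a log2 fold change of -1.91 (SE 0.23, limma adjusted p = 0.00584). A second Oas1a probe gave -1.98. Oasl1 (log2 fold change -2.06), Oasl2 (-1.81) and Oas2 (-1.58) were likewise separated between genotypes by over 1 log2 unit. Oas1a has near-identical copies in the mouse genome, so its probes may read more than 1 gene. The order of the arrays was the same in all 5 genes: WT replicate 1 was the highest and WT replicate 3 the lowest of the WT arrays, and Zip13-KO replicate 3 was the highest and Zip13-KO replicate 1 the lowest of the Zip13-KO arrays.

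Isg15 encodes a ubiquitin-like protein that is attached to other proteins, and Usp18 encodes the protease that removes it and also damps the type I receptor. Isg15 was at 13.34, 13.51 and 12.58 in WT and 11.51, 11.45 and 11.80 in Zip13-KO, which is 2.94-fold lower (log2 fold change -1.56, SE 0.26, limma adjusted p = 0.00948), and its second probe gave -1.48. Usp18 did not pass the test. Its values were 10.63, 10.59 and 9.83 in WT and 9.79, 9.59 and 9.76 in Zip13-KO (log2 fold change -0.63, SE 0.23, limma adjusted p = 0.0731). WT replicate 3 was almost as low as the Zip13-KO arrays, 0.04 above the highest of them, and without that array Usp18 was called lower (-0.90, limma adjusted p = 0.00883).

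The sensors of viral nucleic acid showed the same direction. Dhx58 (LGP2), a regulator of RIG-I-like receptors, was at 9.93, 9.69 and 9.32 in WT and 8.30, 8.42 and 8.34 in Zip13-KO (log2 fold change -1.30, SE 0.16, limma adjusted p = 0.00584). Zbp1, a sensor of Z-form nucleic acid that can start cell death, was at 11.48, 11.88 and 10.67 in WT and 9.68, 9.94 and 10.004 in Zip13-KO (-1.47, SE 0.31, limma adjusted p = 0.0165). Both genes were separated between genotypes, and the second Zbp1 probe gave -1.62.

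Ddx58 (RIG-I), a sensor of short viral RNA ends, was 1.57-fold lower (-0.65, SE 0.09, limma adjusted p = 0.00696). A dimmer second probe gave -0.32, under the fold threshold. Ifih1 (MDA5), the sensor of long double-stranded RNA, was at 10.57, 10.94 and 10.29 in WT and 10.16, 10.09 and 10.27 in Zip13-KO, and did not pass (-0.42, SE 0.17, limma adjusted p = 0.101). The genotypes of Ifih1 were separated by 0.02 on the log2 scale.

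Among the transcription factors, 4 of 5 were called lower. Irf7, which drives the amplifying wave of interferon production, was at 11.22, 10.76 and 10.42 in WT and 9.04, 8.96 and 9.54 in Zip13-KO, which is 3.07-fold lower (log2 fold change -1.62, SE 0.25, limma adjusted p = 0.00816). Irf8, a factor of the myeloid lineage, was at 13.81, 13.77 and 13.82 in WT and 12.79, 12.97 and 13.02 in Zip13-KO (-0.87, SE 0.09, limma adjusted p = 0.00459). Its WT arrays differed by less than 0.05, the closest agreement of any member in WT. Without Zip13-KO replicate 1 or 2, 2 of the 5 factors were called lower.

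Stat2 and Irf9 encode subunits of the complex that binds the ISRE. Stat2 was at 11.99, 12.30 and 11.61 in WT and 11.16, 11.10 and 11.12 in Zip13-KO (-0.84, SE 0.17, limma adjusted p = 0.0162). Irf9 was 1.504-fold lower, just past the threshold (-0.59, SE 0.08, limma adjusted p = 0.0071). Irf1, the factor induced by interferon-gamma, was at 12.56, 13.42 and 12.92 in WT and 12.97, 12.91 and 12.74 in Zip13-KO, and the genotypes overlapped (-0.10, SE 0.22, limma adjusted p = 0.751).

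The IFIT proteins bind foreign RNA and hold back its translation, and all 3 of their genes were called lower. Ifit1 was at 9.19, 9.17 and 8.09 in WT and 7.51, 7.49 and 7.66 in Zip13-KO (log2 fold change -1.26, SE 0.30, limma adjusted p = 0.0247). Ifit3 differed by -0.97 and Ifit2 by -0.85. Without WT replicate 1 or 2 or Zip13-KO replicate 3, 1 of the 3 genes was called lower, and without Zip13-KO replicate 1 or 2, 0 were. In each of the 3 genes, WT replicate 3 was the lowest WT array and lay between the other WT arrays and the Zip13-KO arrays.

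The IFITM proteins sit in membranes and hinder the fusion of viruses with the cell, and all 3 were called lower as well. Ifitm3 was at 14.86, 14.61 and 14.19 in WT and 13.18, 13.03 and 13.49 in Zip13-KO, which is 2.498-fold lower (log2 fold change -1.32, SE 0.20, limma adjusted p = 0.00828). Ifitm1 differed by -0.94 and Ifitm2 by -0.78. WT replicate 1 was the highest array and Zip13-KO replicate 3 the highest Zip13-KO array in all 3 genes. Without Zip13-KO replicate 1 or 2, 1 of the 3 genes was called lower.

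Of the other antiviral effectors, Bst2 (tetherin, which holds budding virions at the cell surface) was at 13.92, 13.64 and 13.52 in WT and 12.72, 12.68 and 12.79 in Zip13-KO (-0.97, SE 0.12, limma adjusted p = 0.00577). Rsad2 (viperin, an enzyme that makes a chain-terminating nucleotide) was at 10.33, 10.498 and 9.78 in WT and 9.19, 9.29 and 9.55 in Zip13-KO (-0.86, SE 0.20, limma adjusted p = 0.0237). Both were called lower. Isg20, an exonuclease, was at 12.14, 11.95 and 12.20 in WT and 11.90, 11.88 and 11.98 in Zip13-KO, with overlapping genotypes (-0.18, SE 0.09, limma adjusted p = 0.174). Without WT replicate 1 or 2, or Zip13-KO replicate 1 or 2, 1 of the 3 genes was called lower.

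**Figure D2:**
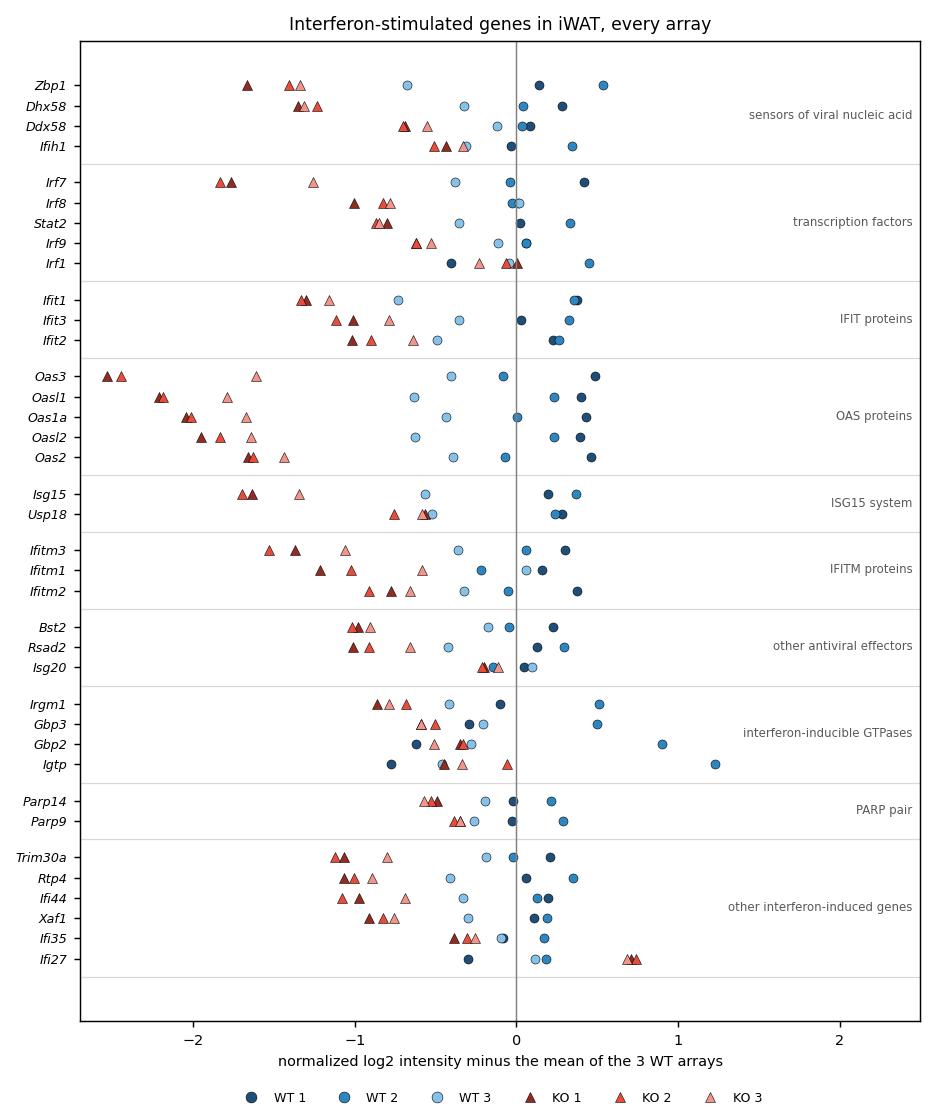
Normalized log2 intensity of each of the 37 genes on every array, minus the mean of its 3 WT arrays (horizontal axis), with genes grouped by role (circles, WT; triangles, Zip13-KO). The Zip13-KO points lie left of all WT points for 32 genes, overlap them for Irf1, Isg20, Gbp2 and Igtp, and lie right of them for Ifi27.

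The interferon-inducible GTPases of the list had another order of arrays than the OAS genes. These proteins assemble on the vacuoles of intracellular pathogens, and they are textbook targets of interferon-gamma. Only Irgm1, a regulator of the other members of its family, was called lower: it was at 11.60, 12.22 and 11.29 in WT and 10.84, 11.02 and 10.92 in Zip13-KO (-0.78, SE 0.23, limma adjusted p = 0.0458), and its second probe gave -0.84. Gbp3 had separated genotypes and did not pass, with 11.59, 12.38 and 11.68 in WT and 11.29, 11.38 and 11.29 in Zip13-KO (-0.56, SE 0.21, limma adjusted p = 0.0859). In fits that left out 1 array, Irgm1 was called only when that array was WT replicate 3.

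Gbp2 was at 11.91, 13.44 and 12.25 in WT and 12.19, 12.21 and 12.02 in Zip13-KO (-0.39, SE 0.38, limma adjusted p = 0.447). Igtp (IRGM3) was at 11.97, 13.98 and 12.28 in WT and 12.30, 12.68 and 12.41 in Zip13-KO (-0.28, SE 0.51, limma adjusted p = 0.696). In both genes WT replicate 2 lay above every other array. The other WT arrays lay below all 3 Zip13-KO arrays for Igtp, and 1 below and 1 above them for Gbp2. Igtp was 3.60-fold and Gbp2 2.56-fold higher in WT replicate 2 than in the mean of the other WT arrays.

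The same array was the highest WT array for 4 of 4 listed GTPases and for 14 of 14 measured GTPases of a wider list of the family. On all tested genes it was the highest WT array for 4253 of 15306. It was also the highest for 19 of the 37 listed genes and 28 of 43 other interferon-stimulated genes. Among cell type markers, it was the highest for 10 of 12 of adipocytes, 6 of 9 of dendritic cells and 3 of 16 of macrophages. It was the highest for 0 of the 5 OAS genes. Iigp1 was at 9.54, 11.76 and 9.44 in WT and 9.88, 10.34 and 9.54 in Zip13-KO, Irgm2 was at 11.54, 13.02 and 11.41 against 11.64, 11.80 and 11.73, and Gbp2b was at 3.77, 9.02 and 6.08 against 5.88, 6.29 and 5.97. None of these 3 genes was called. They were named after their values were seen. Ifng, which encodes interferon-gamma, was at 6.31, 8.11 and 6.19 in WT and 6.35, 6.18 and 7.53 in Zip13-KO (limma adjusted p = 0.833), and was highest in the same WT array. Among Zip13-KO arrays Ifng was highest in replicate 3, which was the highest for 0 of 4 listed and 2 of 14 wider GTPases. A link between Ifng and the order of the arrays was not tested.

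Without WT replicate 2, the log2 fold changes of Igtp (0.34), Gbp2 (0.06) and Irf1 (0.13) turned positive and stayed outside the test's threshold, and Irgm1 was no longer called. Of the 37 genes, 20 were then called lower and Ifi27 still higher. Of the wider GTPase list, the median moved from -0.42 with all arrays to -0.05 without WT replicate 2, with 6 of 14 genes above 0. The OAS group moved little: its median was -1.91 in both fits, and all 5 genes were called lower in both.

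**Figure D3:**
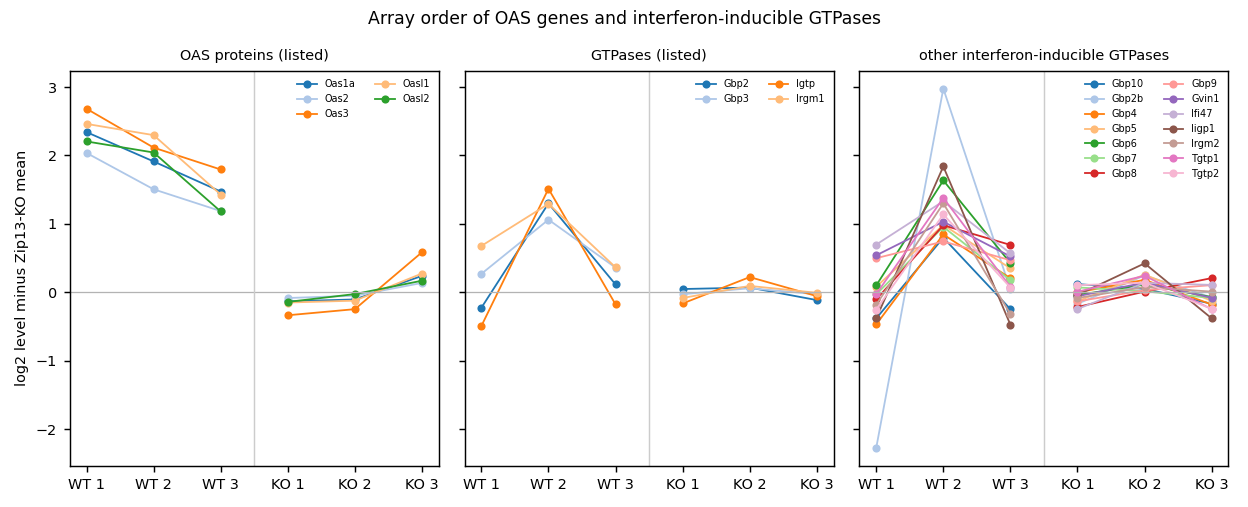
Normalized log2 intensity on each array minus the mean of the 3 Zip13-KO arrays (vertical axis) for the 5 OAS genes, the 4 listed GTPases and 14 further GTPases (lines join the arrays of 1 gene within a genotype and imply no order of replicates). WT replicate 2 is the highest WT array for all 18 GTPases, and WT replicate 1 is the highest for all 5 OAS genes.

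Parp9 and Parp14 encode ADP-ribosyltransferases that act in interferon signalling. Parp14 had an adjusted p of 0.0192 from limma but a change of 1.44-fold, so it was not called, with 12.14, 12.38 and 11.97 in WT and 11.67, 11.63 and 11.59 in Zip13-KO. Parp9 differed by -0.36 (limma adjusted p = 0.0996). Both genes were separated between genotypes.

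Of the 6 remaining genes, 4 were called lower (2 without Zip13-KO replicate 1 or 2). Trim30a, a TRIM protein that damps inflammatory signalling, was at 10.59, 10.36 and 10.19 in WT and 9.32, 9.26 and 9.58 in Zip13-KO (-0.99, SE 0.14, limma adjusted p = 0.00696). Rtp4, a chaperone of receptors at the cell surface, was at 13.26, 13.55 and 12.78 in WT and 12.13, 12.19 and 12.30 in Zip13-KO (-0.99, SE 0.19, limma adjusted p = 0.0142). The genotypes of both genes were separated, by 0.61 and 0.48 on the log2 scale.

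Ifi44 differed by -0.91 (limma adjusted p = 0.0134) and Xaf1, a factor that favours apoptosis, by -0.83 (limma adjusted p = 0.0103). A dimmer second probe for Xaf1 gave -0.24, so the size of its difference depended on the probe. Ifi35 was at 11.24, 11.498 and 11.23 in WT and 10.94, 11.02 and 11.07 in Zip13-KO, and it was not called, at 1.25-fold (-0.32, SE 0.10, limma adjusted p = 0.0521).

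Ifi27, which encodes a small hydrophobic protein, went the other way. It was at 15.52, 16.01 and 15.94 in WT and 16.53, 16.56 and 16.51 in Zip13-KO, which is 1.64-fold higher (log2 fold change 0.71, SE 0.14, limma adjusted p = 0.0137). Its lowest Zip13-KO array lay 0.50 above its highest WT array. Its relative Ifi27l2a, at 16.56 to 16.67 in WT and 16.68 to 16.78 in Zip13-KO, was not called (0.12, limma adjusted p = 0.24). Without WT replicate 1, or without Zip13-KO replicate 1 or 2, Ifi27 was not called.

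Across the arrays, the spread was wider in WT than in Zip13-KO. The WT standard deviation exceeded that of Zip13-KO for 34 of the 37 genes (91.9%), against 68.9% of all genes tested, and the median standard deviation of the 37 genes was 0.35 in WT and 0.12 in Zip13-KO. WT replicate 3 was the lowest WT array for 29 of the 37 genes, against 4737 of all 15306 genes tested. Zip13-KO replicate 3 was the highest Zip13-KO array for 27 of the 37, against 5462 of all 15306. Relative to each gene's WT mean, the median of the 37 genes was 0.13, 0.21 and -0.33 on the WT arrays and -0.98, -0.91 and -0.76 on the Zip13-KO arrays. Even the lowest WT array thus lay above all Zip13-KO arrays by this median.

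Zip13-KO replicate 1 lay in the same slide column as the WT arrays, which allows a comparison within that column. It lay below all 3 WT arrays for 33 of the 37 genes and above them for 1, where it lay below them for 35.0% and above them for 40.2% of all genes. With slide column as a block in limma, 0 of the 37 genes were called in either direction, as were 7 lower and 0 higher of all genes. That fit sets only Zip13-KO replicate 1 against the WT arrays. At an unadjusted p under 0.05 in it, 26 of the 37 genes were lower and 1 was higher, where 31.4% of all genes passed in either direction, and the median log2 fold change was -0.98.

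Upstream of these genes, most of the interferon genes measured were dim. Of 21 interferon genes listed, 9 were tested, none was called, and the genotypes of all 9 overlapped. The other listed genes, Ifnb1 among them, were not tested, so their levels are not known from these arrays. Over all genes tested, the genotypes of 6876 of 15306 overlapped. At an unadjusted p under 0.05, 0 of the 9 interferon genes passed in limma. Ifna2 was well above background on 3 of 3 WT and 0 of 3 Zip13-KO arrays, so it passed the filter through WT alone. With Zip13-KO values under the lowest signal called above background raised to it, the WT mean was 1.17-fold higher. No difference was shown for this gene (limma adjusted p = 0.252). Of the others, the log2 fold changes ran from Ifna14 at -0.21 to Ifna12 at 0.51. Ifng (6.18 to 8.11) and Ifnl3 (7.38 to 7.81) were the brightest by their own probes and lay well above the lowest signal called above background, 3.22 to 3.80 on an array, and the other 7 lay between 2.87 and 5.79.

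Of 11 receptor chains, kinases and STATs, Ifngr2, a chain of the interferon-gamma receptor, was the 1 gene called, at 11.52, 11.39 and 11.38 in WT and 10.93, 10.75 and 10.82 in Zip13-KO (-0.60, SE 0.08, limma adjusted p = 0.00724). Of all genes tested, 8.28% were called lower. The type I receptor chains Ifnar1 (-0.32) and Ifnar2 (0.27) stayed under the fold threshold. Ifngr2 was not called without WT replicate 1 or without Zip13-KO replicate 2, and 2 genes of this list were called lower without WT replicate 2.

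Among 17 adaptors, kinases and IRFs that act between sensing and interferon production, the median log2 fold change was -0.42. Where 8.28% of all genes tested were called lower, 6 of these 17 were called lower and 0 higher. They were Ripk3 (-1.01), a kinase of necroptosis, Ikbke (-0.94), a kinase of IRF3 and IRF7, Irf5 (-0.87), Sting1 (-0.73) and Cgas (-0.72), which form the pathway that senses cytosolic DNA, and Myd88 (-0.65), the adaptor of Toll-like receptors. Mavs, the mitochondrial adaptor of RIG-I and MDA5, had the highest value of this list and was not called: 10.78, 10.98 and 11.08 in WT and 11.52, 11.59 and 11.37 in Zip13-KO (0.55, SE 0.11, limma adjusted p = 0.0141, under 1.5-fold). Without WT replicate 3 or Zip13-KO replicate 3, Mavs was called higher.

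Negative regulators of the pathway were lower where they were called. Of all genes tested, 8.28% were called lower. Of the 18 regulators tested, 5 were called lower and 0 higher, with a median of -0.30. They were Socs3 (-1.13), an inhibitor of JAK kinases, Trex1 (-1.07), a nuclease that clears cytosolic DNA, Samhd1 (-0.78), which depletes nucleotides, and the phosphatase genes Ptpn6 (-0.67) and Ptpn1 (-0.64). Ptpn11 was the highest, at 0.21, and did not pass. Without Zip13-KO replicate 1, 3 of the 18 were called lower.

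The relatives of the listed genes gave further counts, where 8.28% of all genes tested were called lower. Of the wider GTPase list, 2 of 14 were called lower, Ifi47 (-0.87) and Gvin1 (-0.70), the genotypes of 11 overlapped, and Gbp10 (-0.06) was the highest. Over all genes tested, the genotypes of 6876 of 15306 overlapped. In the IFI200 family of nucleic acid-binding proteins, all 10 tested genes had separated genotypes, and 7 were called lower: Ifi213 (-1.40), Ifi204 (-1.34), Ifi207 (-1.14), Ifi205 (-0.93), Ifi209 (-0.87), Ifi203 (-0.62) and Ifi208 (-0.60). The member nearest 0 was Aim2 (-0.32), a sensor of double-stranded DNA that forms inflammasomes, which did not pass. Several members of this family are close in sequence, so a probe may read more than its own gene. Of the wider GTPase list, 4 were called lower without WT replicate 1, 1 without either WT replicate 2 or Zip13-KO replicate 3, and 0 when Zip13-KO replicate 1 or 2 was left out. Of the IFI200 family, 4 were called lower without Zip13-KO replicate 1.

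Of 19 tested paralogs of the listed genes, 7 were called lower and 1 higher, against 8.28% and 10.2% of all genes tested. Oas1f (-1.86) and Ifitm6 (-1.56) had the lowest values, followed by Ifit1bl1 (-1.02), Trim30d (-0.95), Ifit3b (-0.77), Trim30b (-0.69) and Zc3hav1 (-0.65). Rtp3, a relative of Rtp4, was called higher at a low level, 5.10, 5.34 and 5.15 in WT and 6.45, 5.97 and 5.65 in Zip13-KO (0.83, SE 0.21, limma adjusted p = 0.0274). Here too a probe may read near-identical copies. Rtp3 was called higher in the fits without WT replicate 2 or Zip13-KO replicate 3 and in no other fit that left out 1 array.

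Where 8.28% of all genes tested were called lower, 12 of 43 tested genes of a list of other interferon-stimulated genes were. The median of this list was -0.44, and 0 of its genes were called higher. The lowest were Apol9b (-1.59) and Apol9a (-1.58), near-identical copies of an apolipoprotein L gene, and Phf11b (-1.30) and Phf11d (-1.12). The others were Ifi30 (-0.94), a thiol reductase of antigen processing, Ly6e (-0.86), Epsti1 (-0.85), Eif2ak2 (-0.80), the kinase PKR that halts translation, Ube2l6 (-0.79), the conjugating enzyme for ISG15, Tor3a (-0.73), Tap1 (-0.65), a peptide transporter, and Sp100 (-0.62). Cxcl9, a chemokine induced by interferon-gamma, had the highest value and did not pass: 10.09, 12.06 and 10.998 in WT and 11.60, 11.54 and 11.20 in Zip13-KO (0.40, SE 0.47, limma adjusted p = 0.541).

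**Figure D4:**
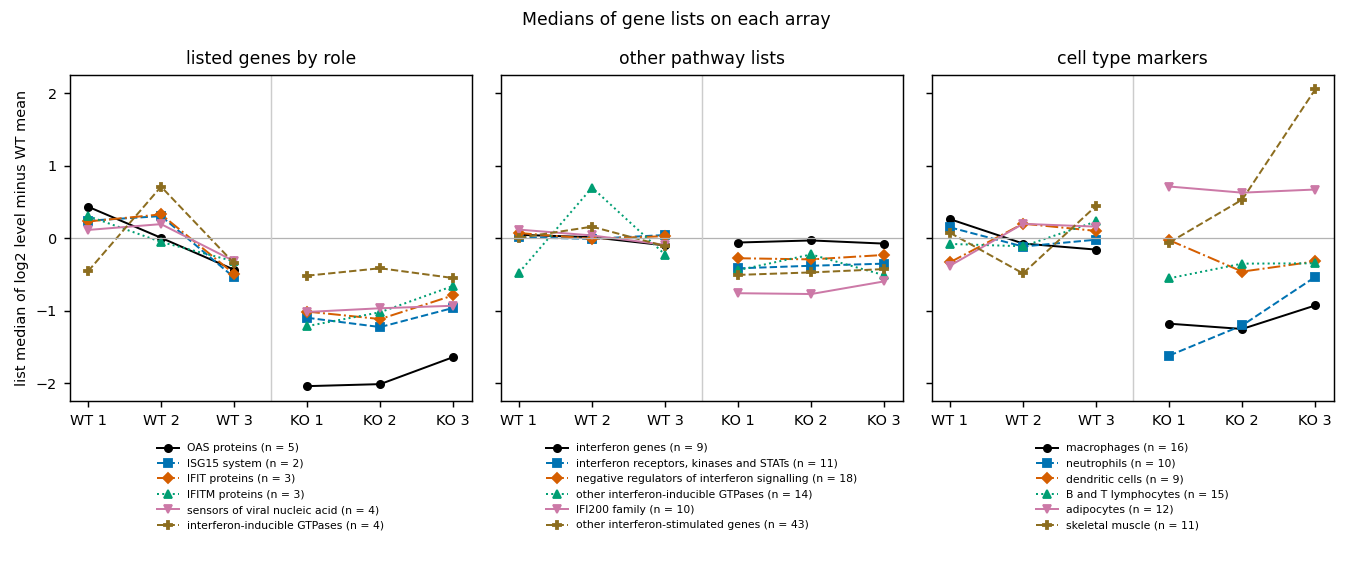
Median over the genes of a list of the log2 intensity minus the WT mean of each gene (vertical axis), on each of the 6 arrays, for the listed genes by role, other lists of the interferon pathway, and cell type markers (lines join the arrays of 1 list within a genotype and imply no order of replicates). OAS genes lie at -2.04 to -1.64 and macrophage markers at -1.25 to -0.93 on the Zip13-KO arrays. The 9 interferon genes tested, of 21 listed and most of them dim, stay between -0.08 and 0.05 on all but WT replicate 3 (-0.10).

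Markers of several cell types differed by genotype alongside these genes, where 8.28% of all genes tested were called lower and 10.2% higher. Of 16 macrophage markers, 11 were called lower and 0 higher, with a median of -1.12. Their mean log2 level was 11.99 to 12.31 on WT arrays and 10.85 to 11.26 on Zip13-KO arrays. Fcgr1 (-2.57), Cd68 (-1.87) and Adgre1 (-1.64), which encodes F4/80, were called lower, and all 16 markers were well above background on all 6 arrays. Itgam (-0.17) was nearest to 0. Zip13-KO replicate 3, the highest Zip13-KO array for most interferon-stimulated genes, was also the highest for 15 of the 16 macrophage markers. It was likewise the highest for 9 of 10 neutrophil, 10 of 12 stromal and 10 of 11 skeletal muscle markers. For dendritic cell and adipocyte markers it was the highest for 3 of 9 and 4 of 12, and for all genes tested for 5462 of 15306. Among WT arrays, replicate 1 was the highest for 12 of 12 stromal markers and replicate 3 the lowest for 11, as in the OAS genes. For macrophage markers these counts were 10 and 9 of 16, and for adipocyte markers 0 and 0 of 12. Some of the listed genes, such as Irf8, are also expressed by macrophages, and the part of these cells in the result was not tested. Whether markers such as Fcgr1 themselves respond to interferon was not tested either.

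Of 10 neutrophil markers, 5 were called lower (1 to 6 when 1 array was left out; Camp, Cxcr2, Mpo, S100a8 and S100a9), with a median of -1.16 and a mean level of 10.02 to 10.18 on WT and 8.45 to 9.59 on Zip13-KO arrays. Of 9 dendritic cell markers, 1 was called lower, Itgax (-0.86), where 8.28% of all genes tested were. Their mean level was 9.51 to 10.1 on WT and 9.43 to 9.52 on Zip13-KO arrays. The median of the dendritic cell markers was -0.52, and 8 of the 9 lay below 0. Siglech, a marker of plasmacytoid dendritic cells, the cells known for making type I interferon, was at 14.93 to 15.03 in WT and 14.91 to 14.97 in Zip13-KO and was not called (-0.03, limma adjusted p = 0.743). It was named after its values were seen, and whether its signal came from these cells was not tested. Of 9 natural killer cell markers, 3 were called lower (Eomes, Gzma and Gzmb; mean level 8.27 to 8.69 on WT and 7.67 to 7.97 on Zip13-KO arrays), and of 15 B and T lymphocyte markers, 0 were called, with a median of -0.39. Without 1 array, 0 to 3 dendritic cell markers, 2 to 4 natural killer cell markers and 0 to 3 lymphocyte markers were called lower.

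Markers of adipocytes ran the other way: of 12, 5 were called higher (Acsl1, Aqp7, Lipe, Plin1 and Pparg) and 0 lower, with a mean level of 13.85 to 14.57 on WT and 14.95 to 15.05 on Zip13-KO arrays. All 12 had log2 fold changes above 0 and were well above background on all 6 arrays. Cfd, which encodes the adipocyte product adipsin, was at 17.39 to 17.49 in WT and 17.48 to 17.49 in Zip13-KO, whereas Lep, the leptin gene, was at 7.07, 9.98 and 9.73 in WT and 10.12, 10.21 and 9.66 in Zip13-KO. Of 12 stromal markers, Dpp4, Ly6a, Pdgfra and Thy1 were called lower, with a mean level of 13.3 to 14.3 on WT and 12.9 to 13.2 on Zip13-KO arrays. Of 11 endothelial markers, Cdh5, Esam and Robo4 were called higher, with a mean level of 9.88 to 9.98 on WT and 10.27 to 10.34 on Zip13-KO arrays. The mean level of skeletal muscle markers was 6.48 to 7.51 on WT arrays and 6.91, 7.59 and 8.68 on the Zip13-KO arrays, highest on Zip13-KO replicate 3, with none of 11 called in limma. Mammary epithelium markers, 5 tested, gave 0 calls. Of all genes tested, 8.28% were called lower and 10.2% higher. The part of these cell types in the result was not tested. When 1 array was left out, 2 to 7 adipocyte markers were called higher and 0 to 10 stromal markers lower.

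The share of genes holding the ISRE core was close between the listed genes that were called lower and those that were not called. Of 22 genes called lower with a promoter in the table, 13 held a match (59.1%), and of 7 genes not called, 4 held one (57.1%). The latter were Gbp2, Gbp3, Igtp and Ifih1. Irf7, Oasl1 and Oasl2, called lower by over 3-fold, held none of these letters in this window. A match is a description of the letters and does not show binding.

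**Figure D5:**
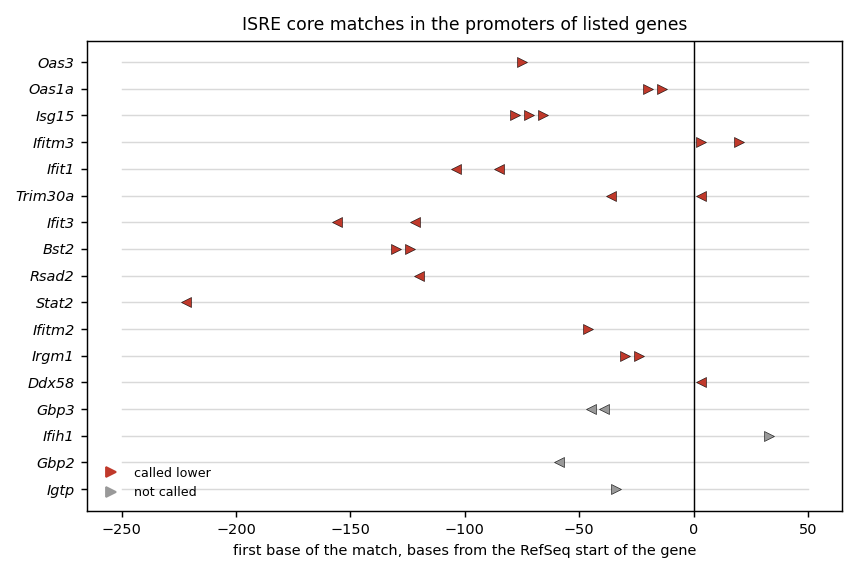
Positions of ISRE core matches in the promoters of the 17 listed genes that held at least 1, in bases from the RefSeq start of the gene (horizontal axis, first base of the match), ordered from the lowest log2 fold change at the top; the arrowheads give the strand relative to the gene. Isg15 matches start at -78, -72 and -66, and the 4 genes in grey were not called.

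Outside the list, 450 other tested genes with a promoter in the table held the ISRE core. Of these, 66 were called lower (14.7%) and 30 higher (6.67%), whereas of 11641 tested genes without a match, 7.74% were called lower and 10.2% higher. The median log2 fold changes were -0.10 and 0.01. With the genes of the other interferon lists left out, 53 of 409 genes with a match were called lower (13.0%). The GAS core TTCCNGGAA was found in 2 of the 29 listed genes (6.9%), Bst2 and Ifit2, against 1.35% of all genes in the table. Of 184 other tested genes that held it, 8 were called lower (4.35%) and 12 higher (6.52%), against 8.05% and 10.1% of those without it.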

How the data were processed

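RNA of the iWAT of 3 WT and 3 Zip13-KO mice was measured on Agilent SurePrint G3 arrays. The authors deposited the scanner output of Feature Extraction 11.5.1.1, which gives the processed signal of each spot in intensity units, already corrected for background and not normalized between arrays. They also deposited a table of log2 values, which matches the median signal after quantile normalization between arrays. The table was used as an alternative only.

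The log2 processed signal was quantile normalized over the 6 arrays. Control spots and spots with outlier flags were left out, and the spots of a probe were averaged. Of 55681 probes, 33046 were kept, those that stood well above background in every array of WT, of Zip13-KO or of both. Probes were named through the RefSeq table of GRCm38.p6, and the brightest kept probe stood for a gene. Intensities of different probes were compared only in calling a probe or gene dim, dimmer, brightest or at a low level. Mean levels of marker lists average over different probes. Genes were tested by lmFit and eBayes of limma 3.58.1 under R 4.3.3, which stands in for the combined test of the study's methods, and p values were adjusted by Benjamini-Hochberg over all 15306 genes. The labels give 3 mice per genotype and no litter or preparation date, and precision is limited by how few arrays there are. An exact permutation test of 3 against 3 has 0.1 as its smallest two-sided p, so none was run. The limma steps were tested on simulated data.

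All 39 listed genes are named, with the genes called and the extremes of each of 8 other lists of the pathway, and of 10 cell type marker lists the genes called where 5 or fewer. Other genes named were chosen after their values were seen. The members, the lists and the tests were chosen with earlier results of these data known. No list was tested as a set.

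The alternatives were other scalings and background corrections, the deposited table, other probe filters, the mean of a gene's probes, a robust prior with intensity trend, blocks for replicate number or slide column, other thresholds, the methods' t-test, and leaving out each array. The normexp and uncorrected alternatives used the median signal.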

Additional observations from a re-analysis of the deposited data

How the results depend on the processing

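The median log2 fold change of the 37 genes stayed below 0 under all 20 alternatives, from -1.02 to -0.80. Of 740 values of single genes under these alternatives, 622 kept their direction and their side of the threshold, 110 lost the call, 3 gained it and 5 turned in sign. The count of genes called lower was 26 with all arrays and 14 to 28 when 1 array was left out, and the count called higher was 0 to 1. The lowest count, 14, came when either Zip13-KO replicate 1 or 2 was left out. Over all genes tested, leaving out 1 array gave 759 to 1463 lower calls and 951 to 1651 higher calls.

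With slide column as a block, where only Zip13-KO replicate 1 is set against WT, 0 listed genes were called lower and 0 higher, 7 of all genes lower and 0 higher, and 0 of the other interferon lists lower. At an adjusted p under 0.01, 14 listed genes were lower and 0 higher, 500 of all genes lower and 704 higher, and 22 genes of the other interferon lists lower, against 40 in the reported fit. With no fold threshold, 2330 of all genes were lower and 2951 higher, and 68 genes of the other lists were lower. The methods' t-test after Benjamini-Hochberg gave 16 listed genes lower, and 709 of all genes lower and 1002 higher. The cause of these shifts was not tested.

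The log2 fold change of Irf1 turned positive with 75th percentile scaling (0.011) and with slide column as a block (0.0025), and it ranged from -0.30 to 0.13 when 1 array was left out. Over the same left-out arrays, Gbp2 ranged from -0.71 to 0.057 and Igtp from -0.66 to 0.34, and all 3 were positive only without WT replicate 2. The cause was not tested.

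The labels do not say whether replicate numbers pair the samples. Deviations of same-numbered arrays correlated at r = -0.02, 0.04 and -0.08, and those of differently numbered arrays at -0.17 to 0.18. With so few arrays, these values cannot show whether any mice shared a litter or preparation. With the replicate number as a replicate block, 19 listed genes were called lower, without Ifit1, Ifit2, Ifit3, Ifitm2, Rsad2, Irgm1 and Ifi44, and 1 was called higher. Of all genes, 1038 were lower and 1271 higher in that fit.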
